A study of Mus musculus with 9 samples.

Results

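Loss of the transcription factors BATF and BATF3 was examined in resting splenic cDC2, the conventional dendritic cells that mainly present antigen to CD4 T cells. The comparison held 4 of the 9 arrays of the study, chosen by their labels alone. They were 2 arrays of resting cDC2 from Batf-/- Batf3-/- double-knockout mice (DKO below) and 2 of resting cDC2 from wild-type mice (WT), all of strain 129SvEv/Tac and all sort-purified from spleen. The other 5 arrays were activated cDC2 of both genotypes, 2 arrays each, which had 1 h of IFN-gamma (100 ng/ml) before a further 3 h with LPS of E. coli (1 µg/ml), and 1 array of resting WT cDC1. The labels give no age of the mice, no number of mice per array and no sort gate. Nor is it stated that replicate arrays stem from different animals, so p-values measure the spread between these arrays, which may be technical.

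BATF and BATF3 are small basic leucine zipper proteins of the AP-1 family. They have no activation domain of their own, pair with JUN proteins and, at many sites, bind DNA together with IRF4 or IRF8. In dendritic cells BATF3 is known as the factor that cDC1 need for their development and BATF can take its place in part, while cDC2 form without either. The comparison asks which genes differ in a cell type that still forms without them.

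Values are log2 intensities, 1 per gene and array, and differences are DKO minus WT on that scale, so that 1 is a 2-fold change. They are given with the standard error (SE) of the limma fit. Batf itself read 5.40 and 5.44 in DKO and 6.74 and 7.37 in WT. Batf3 read 6.43 and 7.17 in DKO and 7.71 and 7.58 in WT. Both genes were lower on both DKO arrays than on both WT arrays, with differences of -1.64 ± 0.54 and -0.84 ± 0.45, although neither passed the test over all genes (adjusted p = 0.654 and 0.907). Where the probes lie relative to the deleted exons is not known. The related Batf2 read 6.19 and 6.53 in DKO and 6.57 and 6.87 in WT, at -0.36 ± 0.16, or -0.21 without WT replicate 2. Irf4, the partner that marks cDC2, read 10.03 and 9.37 in DKO and 9.72 and 9.60 in WT, at 0.04 ± 0.23, or -0.01 without WT replicate 2. Irf8, the partner that marks cDC1, read 8.46 and 7.64 in DKO and 8.06 and 7.65 in WT, at 0.20 ± 0.33, or -0.01 without WT replicate 2. On the cDC1 array Irf4 stood at 5.13 and Irf8 at 9.94.

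The cDC2 identity of the 4 arrays was checked on markers. The cDC1 receptors Xcr1 and Clec9a read 4.55 to 4.67 and 3.64 to 3.85 on the 4 arrays, near the lowest intensities measured, against 9.33 and 8.67 on the cDC1 array. The cDC2 receptor Sirpa read 9.73 and 10.12 in DKO and 10.30 and 9.88 in WT and 7.05 in cDC1. Of 22 cDC2 markers with a probe set of their own, 16 were bright enough to be tested. Itgam, Clec4a4, Cd209a and Clec10a were among the 6 that were not. Siglech, which defines plasmacytoid dendritic cells, was also too dim on all arrays to be tested.

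WT replicate 2 was set apart before the comparison, because its interferon genes were already known to be high. The values that follow describe that array and are not a test. All 34 interferon-stimulated genes tested read highest on WT replicate 2, by 0.03 to 3.30 over WT replicate 1. Their mean was 9.07 and 9.50 in DKO and 9.57 and 10.99 in WT. In WT, 192 genes were higher by more than 1 on replicate 2 than on replicate 1, and 52 were higher by more than 1 on replicate 1. For the DKO arrays these counts were 60 and 55. Counts over all genes are therefore given also without WT replicate 2, as is each single gene's difference at rest where it then had another sign, less than 0.75 or more than 1.5 of its size. Each list median at rest over 4 or more genes is followed by its lowest and highest value with 1 of the 4 arrays left out, and by that without WT replicate 2 where it is neither. Leaving out WT replicate 2 leaves 2 DKO arrays against WT replicate 1, with the lone WT array assumed to vary as the other groups do.

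Across 10728 genes tested, Tgfbi and Tgoln1 passed the threshold of adjusted p below 0.05 in resting cDC2. Both were lower in DKO (0.0186% of genes tested), and by limma 0 genes were higher (0%), with 707 genes at an unadjusted p under 0.05, 384 of them higher (3.58%) and 323 lower (3.01%). The arrays of the groups did not overlap for 1896 genes higher in DKO (17.7%) and 1441 lower (13.4%). Without WT replicate 2, limma called 0 genes in either direction, with 643 at an unadjusted p under 0.05. The 2 DKO arrays then lay on the same side of the lone WT array for 3899 genes above it (36.3%) and 3446 below it (32.1%). With the replicate number as a block, which compares DKO and WT arrays of the same number, 34 genes were called higher (0.317%) and 45 lower (0.419%). Tgfbi and Tgoln1 were called there too. No other gene called with the block passed without it, also where only its adjusted p with the block is given below. With only the 4 resting arrays in the fit, 0 genes passed with or without that block.

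Tgfbi codes for a secreted matrix protein that TGF-beta induces and integrins bind. It read 7.70 and 7.63 in DKO and 9.61 and 9.57 in WT, and fell by 1.93 ± 0.11 (adjusted p = 0.0134), which is 3.80-fold. Replicates lay within 0.07 of each other, and the cDC1 array, at 9.67, read as WT cDC2 did. Without WT replicate 2 the difference was -1.95 ± 0.15 (adjusted p = 0.128). Tgoln1 codes for a membrane protein that cycles between the trans-Golgi network and the cell surface. It read 8.71 and 8.75 in DKO and 10.31 and 10.13 in WT, and fell by 1.49 ± 0.10 (adjusted p = 0.0225), which is 2.81-fold. The WT arrays both lay more than 1 above the DKO arrays, as did the cDC1 array at 10.49. Without WT replicate 2 the difference was -1.59 ± 0.12 (adjusted p = 0.128). Its probes may also read Tgoln2, a near-identical copy that is not analysed here. Leaving out any one of the 4 arrays kept both differences between -1.96 and -1.40. Of these fits, Tgfbi passed in the one without WT replicate 1 (adjusted p = 0.0463) and Tgoln1 in none.

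The 250 bases upstream of the start of both genes, from RefSeq on GRCm38.p6, are shown because these 2 genes carry the calls, and because BATF factors are known to bind AP-1 elements next to IRF elements. Capitals mark an interferon-stimulated response element (GAAA, any 2 bases and GAAA) or an AP-1 element (TGANTCA), each searched on both strands. In the windows printed here no matches overlap.
Tgfbi (chr13:56609336-56609585, plus strand): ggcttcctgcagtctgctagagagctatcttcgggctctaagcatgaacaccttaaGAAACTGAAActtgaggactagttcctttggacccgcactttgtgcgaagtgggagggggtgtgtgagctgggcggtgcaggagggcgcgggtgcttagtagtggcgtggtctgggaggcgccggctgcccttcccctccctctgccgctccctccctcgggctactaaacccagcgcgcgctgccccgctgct
Tgoln1 (chr6:72617001-72617250, minus strand): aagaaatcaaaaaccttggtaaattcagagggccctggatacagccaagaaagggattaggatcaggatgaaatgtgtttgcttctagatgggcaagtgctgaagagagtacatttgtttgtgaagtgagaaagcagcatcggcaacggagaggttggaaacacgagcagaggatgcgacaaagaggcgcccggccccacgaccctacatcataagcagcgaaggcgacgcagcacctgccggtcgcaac
The Tgfbi window held 1 response element and 0 AP-1 elements, and the Tgoln1 window held neither. Among all 32851 promoter windows of this length, 2.98% held the response element and 6.75% the AP-1 element.

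A gene is called held below where its unadjusted p was under 0.05, its groups did not overlap and its difference without WT replicate 2 kept the sign and at least 0.75 of the size. Of the genes tested, 225 were held lower (2.10%) and 365 held higher (3.40%). Of the held genes named here, Tgfbi and Tgoln1 alone passed the threshold over all genes.

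**Figure D1:**
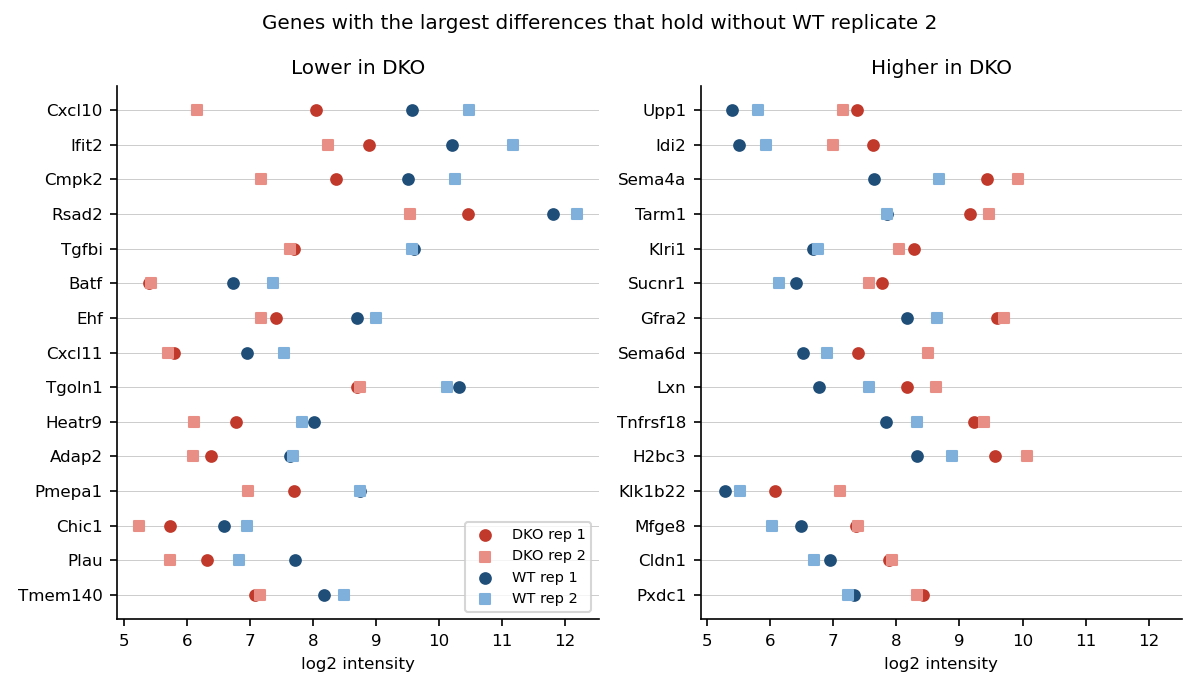
Log2 intensity (x axis) of the 15 largest held differences in each direction on each of the 4 resting arrays, DKO in reds and WT in blues, replicate 1 as circles and replicate 2 as squares. For every gene both red points lie on one side of both blue points, which the rule for held genes requires. Cxcl10 has the widest gap between DKO replicates, at 8.05 and 6.17.

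Among the largest held differences on the lower side were genes of the interferon response. Cxcl10, a chemokine that draws CXCR3-bearing T cells, read 8.05 and 6.17 in DKO and 9.57 and 10.47 in WT, a difference of -2.91 ± 0.60 (adjusted p = 0.414) and of -2.46 ± 0.72 without WT replicate 2. The DKO replicates lay 1.88 apart. Cxcl11, a second ligand of the same receptor, read 5.79 and 5.70 in DKO and 6.96 and 7.55 in WT, with the DKO replicates 0.09 apart, and stood at -1.51 ± 0.19 (adjusted p = 0.191, and 0.0257 with the block). Both DKO values of Cxcl11 lay below the brightness limit for testing, 5.94, and so were dim. Ifit2, which codes for an antiviral protein that binds RNA, read 8.88 and 8.25 in DKO and 10.21 and 11.17 in WT and stood at -2.12 ± 0.36. Rsad2 codes for viperin, an enzyme that makes a chain-terminating nucleotide, and lies next to Cmpk2, a mitochondrial nucleotide kinase. Rsad2 read 10.46 and 9.54 in DKO and 11.81 and 12.18 in WT, at -1.99 ± 0.34 (adjusted p = 0.296, and 0.0422 with the block). Cmpk2 read 8.37 and 7.18 in DKO and 9.50 and 10.25 in WT, at -2.10 ± 0.57. For each of these 5 genes WT replicate 2 was the highest array. WT replicate 1 lay above both DKO arrays, which the rule for held genes requires.

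Other genes held lower were not on the interferon list. Ehf, an ETS-family transcription factor of epithelia and dendritic cells, read 7.41 and 7.17 in DKO and 8.71 and 9.0041 in WT, at -1.56 ± 0.41. Pmepa1, which dampens TGF-beta signalling and is itself induced by it, read 7.70 and 6.98 in DKO and 8.75 and 8.74 in WT, at -1.41 ± 0.22 (adjusted p = 0.225, and 0.0326 with the block). Adap2, which codes for a GTPase-activating protein of the ARF family of GTPases, read 6.39 and 6.11 in DKO and 7.64 and 7.69 in WT, at -1.42 ± 0.19 (adjusted p = 0.0330 with the block). Their WT replicates lay within 0.30 of each other and, by the rule for held genes, above both DKO arrays. Plau, the urokinase that activates plasminogen, stood at -1.24 ± 0.36, Heatr9 at -1.48 ± 0.40, Chic1 at -1.28 ± 0.25 and Tmem140 at -1.21 ± 0.14. Of these, all but Ehf and Chic1 were called with the block (adjusted p from 0.0242 to 0.0330). Some of these genes were brighter in cDC1 than in WT cDC2: Pmepa1 read 10.28 and Tmem140 10.58 on the cDC1 array.

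On the higher side, Upp1, which codes for uridine phosphorylase of the pyrimidine salvage pathway, read 7.37 and 7.16 in DKO and 5.39 and 5.80 in WT. Its difference was 1.67 ± 0.25 (adjusted p = 0.225, and 0.0345 with the block), and 1.88 ± 0.29 without WT replicate 2. Both WT values of Upp1 lay below the brightness limit of 5.94. Sucnr1, the receptor for extracellular succinate, read 7.77 and 7.57 in DKO and 6.41 and 6.15 in WT, at 1.39 ± 0.14, the smallest p on the higher side (adjusted p = 0.162, and 0.0144 with the block). On the cDC1 array it read 4.23, below all 4 cDC2 arrays. Sema4a, a semaphorin that acts on T cells, read 9.44 and 9.93 in DKO and 7.65 and 8.67 in WT, at 1.52 ± 0.52. There WT replicate 2 lay nearer to DKO replicate 1 than to WT replicate 1, and the difference without it was 2.04 ± 0.58.

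Several other genes held higher code for surface receptors. Tarm1, an activating receptor of myeloid cells, read 9.17 and 9.47 in DKO and 7.86 and 7.85 in WT, at 1.47 ± 0.21. Klri1, a lectin-like receptor described in NK cells, read 8.28 and 8.04 in DKO and 6.68 and 6.75 in WT, at 1.45 ± 0.22. Gfra2, a co-receptor for neurturin, read 9.59 and 9.70 in DKO and 8.17 and 8.65 in WT, at 1.24 ± 0.17. For these 3 genes the groups were separated by more than the distance between replicates. Tnfrsf18, which codes for the receptor GITR, stood at 1.22 ± 0.23, Sema6d at 1.24 ± 0.47 and Cldn1, a tight-junction protein, at 1.09 ± 0.16. The remaining ones were Idi2, a relative of the isoprenoid enzyme Idi1, at 1.59 ± 0.28, Lxn, a carboxypeptidase inhibitor, at 1.23 ± 0.43, the histone gene H2bc3 at 1.22 ± 0.26, Klk1b22 at 1.19 ± 0.33, Mfge8, a bridge between dying cells and phagocytes, at 1.13 ± 0.24, and Pxdc1 at 1.09 ± 0.13. Idi2, Klk1b22, Mfge8 and Sema6d were not called with the block, and the other 11 were. Serpinb9b, a granzyme inhibitor of the serpin family, was not held but was called with the block, at 1.35 ± 0.56 (adjusted p = 0.0257). Klri1, Idi2, Klk1b22, H2bc3 and Serpinb9b belong to families of close copies, and their probes may read more than 1 member.

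Interferon-stimulated genes are the set that type I interferon induces, and in spleen dendritic cells they are expressed at rest. All 34 of 34 members tested were lower in DKO on the mean of the arrays, with a median of -0.92 against 0.01 over all genes. The arrays did not overlap for 15 of them (44.1%, against 13.4% of all genes), none passed the threshold over all genes, and with the block 1 did, Rsad2. With 1 array left out the median ran from -1.62 without WT replicate 1 to -0.16 without WT replicate 2. Without WT replicate 2, 15 members lay below WT replicate 1 on both DKO arrays (44.1%, against 32.1% of all genes) and 3 above it (8.82%, against 36.3%). Taken by pairs of the same number, the median was -0.54 for replicate 1 and -1.31 for replicate 2.

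The members were sorted by how much of the difference was left without WT replicate 2. How far the medians of these parts moved follows from that sorting. For Cmpk2, Ifih1, Ifit1, Ifit2, Oasl1 and Rsad2 the difference was held, with a median of -1.52 with WT replicate 2 and -1.24 without it. Ifih1, the cytosolic RNA sensor MDA5, read 10.76 and 10.45 in DKO and 11.37 and 11.40 in WT. Its WT arrays were alike and, by the rule for held genes, above both DKO arrays. Oasl1, a relative of the oligoadenylate synthetases, read 11.48 and 11.02 in DKO and 12.01 and 12.44 in WT. For 26 members, the difference without WT replicate 2 was below 50% of its size or of the other sign, and their median went from -0.81 to -0.09. Oasl2, of the same family, read 7.38 and 8.41 in DKO and 8.13 and 10.39 in WT, and Irf7, the regulator that amplifies the response, read 9.93 and 10.62 in DKO and 10.27 and 12.27 in WT. In both, DKO replicate 2 lay above WT replicate 1, and the differences of -1.37 and -0.997 were -0.24 and 0.00 without WT replicate 2. Mx2 and Parp14 lay between these parts, at -1.79 and -0.80 with WT replicate 2 and -1.28 and -0.52 without it.

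**Figure D2:**
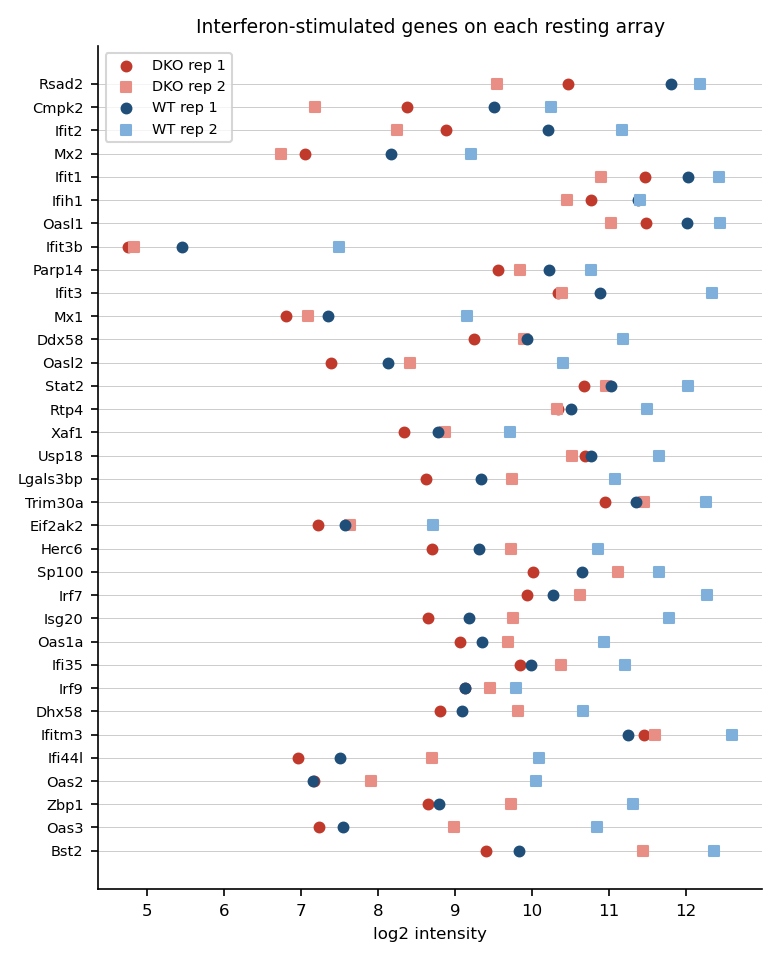
Log2 intensity (x axis) of the 34 interferon-stimulated genes on the 4 resting arrays, ordered from the lowest to the highest difference without WT replicate 2. WT replicate 2 (light blue squares) is rightmost in all 34 rows, while WT replicate 1 (dark blue circles) lies right of both DKO arrays in 15 rows, mostly at the top.

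The upstream windows of Cxcl10 and Rsad2 are shown because they carry both elements, in the notation used for Tgfbi. They do not stand for all genes held lower. The windows of Cmpk2 and of Ifit2, at both of its starts, held 0 of either element. Of genes held higher, Sucnr1 held 1 AP-1 element, and Upp1 held 1 at starts 1 and 2 and 0 at start 3.
Cxcl10 (chr5:92348890-92349139, minus strand): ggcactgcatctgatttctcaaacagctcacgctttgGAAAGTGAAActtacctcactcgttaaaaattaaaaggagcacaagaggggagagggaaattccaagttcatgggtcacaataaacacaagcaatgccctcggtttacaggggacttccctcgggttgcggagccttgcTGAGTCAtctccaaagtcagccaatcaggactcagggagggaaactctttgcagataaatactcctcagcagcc
Rsad2 (chr12:26456453-26456702, minus strand): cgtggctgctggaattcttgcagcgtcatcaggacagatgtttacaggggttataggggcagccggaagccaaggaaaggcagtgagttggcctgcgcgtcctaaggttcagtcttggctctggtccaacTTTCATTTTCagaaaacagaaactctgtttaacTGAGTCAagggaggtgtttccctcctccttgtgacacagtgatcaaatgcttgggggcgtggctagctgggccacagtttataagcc
In Cxcl10 the response element begins 213 bases and the AP-1 element 74 bases before the start. In Rsad2 they begin 120 and 87 bases before it. Of the 26 interferon-stimulated genes with a window, 9 held the response element (34.6%) and 7 the AP-1 element (26.9%). Over all genes tested, 8610 had a window, of which 3.30% and 5.57% held them. Of the genes held lower, 175 had a window and 12 (6.86%) held the response element and 18 (10.3%) the AP-1 element. Of those held higher, 300 had a window and 8 (2.67%) and 20 (6.67%) did. These matches are of letters only and were not tested.

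GTPases and regulators that respond to IFN-gamma had a median of -0.20 over 16 members tested, with 6 not overlapping on the lower side (37.5%, against 13.4% of all genes). Guanylate-binding proteins, GTPases that attack the vacuoles of intracellular microbes, led it. Gbp7 read 6.43 and 6.56 in DKO and 7.05 and 9.07 in WT, at -1.56 ± 0.58, and Gbp5 read 8.52 and 8.49 in DKO and 8.96 and 10.74 in WT, at -1.35 ± 0.51. WT replicate 2 lay more than 1.5 above the other 3 arrays for both. The list's median ran from -0.30 without WT replicate 1 to -0.02 without WT replicate 2, and without that array Gbp7 and Gbp5 stood at -0.56 and -0.46. The median of MHC class I presentation genes was -0.18 over 17 members (-0.36 without WT replicate 1 to 0.16 without WT replicate 2). Antiviral and IFN-gamma genes that lost most of their difference without that array included Ifi206 (-1.92 to -0.87), Trim30d (-1.55 to -0.52), Ifi214 (-1.48 to -0.11) and Phf11a (-1.39 to -0.22). Ms4a6d, a membrane protein of myeloid cells, went from -1.35 to -0.51, yet its differences by pair were -1.31 and -1.39, and it was called with the block (adjusted p = 0.00881). On the higher side, the genes that lost their difference had smaller ones, with Cotl1, which codes for an actin-binding protein, going from 0.60 to 0.23 and Il1r2, the decoy receptor of IL-1, from 0.59 to -0.11.

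**Figure D3:**
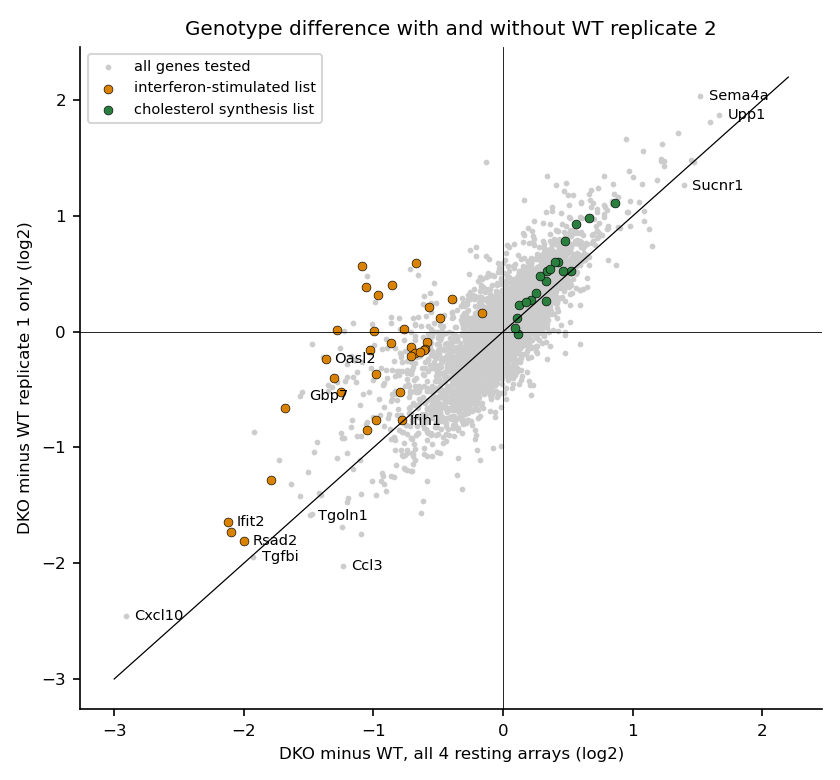
DKO minus WT (log2) with all 4 resting arrays (x axis) against the difference without WT replicate 2 (y axis), 1 point per gene tested, with the line of equality. Interferon-stimulated genes (orange) lie left of 0 on the x axis and spread around 0 on the y axis except for a few such as Ifit2 and Rsad2, while cholesterol synthesis genes (green) lie above 0 for 20 of 20 on the x axis and 19 of 20 on the y axis.

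TGF-beta signals through the receptors TGFBR1 and TGFBR2 to SMAD2 and SMAD3, and in dendritic cells it is known to hold back maturation. Of 20 genes of this pathway tested, 18 were lower in DKO on the mean, with a median of -0.14 (-0.24 without WT replicate 2 to -0.08 without WT replicate 1). The arrays did not overlap for 8 on the lower side (40%, against 13.4% of all genes) and 0 on the higher side (17.7% of all genes). The list holds Tgfbi, a called gene. Besides Tgfbi and Pmepa1, Itgb8, the integrin chain that releases active TGF-beta from its latent form, read 9.03 and 9.43 in DKO and 10.13 and 10.58 in WT, at -1.12 ± 0.46. Tgfbr1, a receptor chain, read 9.35 and 9.002 in DKO and 10.05 and 9.60 in WT, at -0.65 ± 0.28 (adjusted p = 0.0357 with the block). Both mean differences were larger than the distance between DKO replicates. For Tgfbr1, though, the nearest DKO and WT arrays, at 9.35 and 9.60, lay closer together than the replicates of either genotype. Eng, a co-receptor, stood at -0.33 ± 0.11, or -0.22 without WT replicate 2, and Smurf2, a ubiquitin ligase of the pathway, at -0.23 ± 0.09. With the block 3 members were called lower (Tgfbi, Pmepa1 and Tgfbr1) and 0 higher. Genes of the trans-Golgi network and endosomes, the compartment of Tgoln1, had a median of -0.04 over 23 members (-0.07 without WT replicate 2 to -0.01 without WT replicate 1). Of these, 2 did not overlap on the lower side (8.70%, against 13.4% of all genes) and 4 on the higher side (17.4%, against 17.7%), shares near or below those of all genes. Besides Tgoln1, the sorting receptor Sorl1 was held lower, at -0.60 ± 0.10.

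Cholesterol synthesis runs from acetyl-CoA through mevalonate and squalene, and its enzymes are induced together by SREBP2 when sterol is low. All 20 of 20 members tested were higher in DKO on the mean, with a median of 0.34. The arrays did not overlap for 16 (80%, against 17.7% of all genes), and none passed over all genes. With 1 array left out the median ran from 0.19 without WT replicate 1 to 0.50 without WT replicate 2. Without WT replicate 2 both DKO arrays lay above the WT array for 18 (90%, against 36.3%). Idi1, which isomerises isopentenyl diphosphate, read 9.72 and 9.96 in DKO and 8.73 and 9.22 in WT, at 0.87 ± 0.22 (adjusted p = 0.0357 with the block). Mvd, which makes isopentenyl diphosphate, read 9.29 and 9.39 in DKO and 8.36 and 9.0002 in WT, at 0.66 ± 0.20. Hsd17b7, a late sterol enzyme, read 9.12 and 8.95 in DKO and 8.51 and 8.64 in WT, at 0.46 ± 0.11. In all 3 both DKO arrays were highest, and for Idi1 and Mvd WT replicate 2 was nearer to them than WT replicate 1.

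Liver X receptors sense excess sterol and induce genes that export it or lower its uptake. Mylip, their target that degrades the LDL receptor, read 10.22 and 10.62 in DKO and 11.60 and 11.55 in WT, at -1.16 ± 0.19 (adjusted p = 0.0393 with the block). The lipid transfer protein Pltp read 6.67 and 7.06 in DKO and 7.46 and 7.91 in WT, at -0.82 ± 0.28, or -0.59 without WT replicate 2 (adjusted p = 0.0240 with the block), and the phosphodiesterase Smpdl3a stood at -0.38 ± 0.12. The fatty acid desaturase Scd2 went the other way and read 9.99 and 10.77 in DKO and 9.04 and 9.71 in WT, at 1.00 ± 0.46 (adjusted p = 0.0380 with the block). Of 11 members of the list tested, 6 were lower (54.5%, against 13.4% of all genes) and 3 higher (27.3%, against 17.7%) with no overlap, and the median was -0.27 (-0.28 without DKO replicate 2 to -0.18 without WT replicate 1, and -0.19 without WT replicate 2). Genes of fatty acid synthesis, which share Scd1 and Scd2 with it, had a median of 0.17 over 13 members (0.06 without DKO replicate 2 to 0.28 without WT replicate 2), with 2 higher (15.4%, against 17.7%) and 2 lower (15.4%, against 13.4%) with no overlap. Me1, which supplies NADPH, was among the lower, at -0.34 ± 0.12.

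Over 28 cell cycle genes the median was 0.25, with 15 higher in DKO with no overlap (53.6%, against 17.7%) and 0 lower. Of 32 on the array, 21 and 25 were above the brightness limit of 5.94 on the DKO arrays. On the WT arrays 17 and 21 were, and on the cDC1 array 28. Some of the genes tested were thus dim in resting cDC2. With brightness taken in the resting cDC2 groups only, the median was 0.30. The median ran from 0.11 without DKO replicate 2 to 0.43 without DKO replicate 1, and 0.40 without WT replicate 2. Without WT replicate 2, 22 lay above the WT array on both DKO arrays (78.6%, against 36.3%). Top2a, the topoisomerase of dividing cells, read 6.55 and 6.86 in DKO and 5.88 and 6.06 in WT, at 0.73 ± 0.15. Its lower WT value lay below that limit. Ccna2, which codes for cyclin A2, read 7.07 and 7.35 in DKO and 6.34 and 6.63 in WT, at 0.72 ± 0.17 (adjusted p = 0.0380 with the block). Mki67, the proliferation marker, read 8.05 and 8.53 in DKO and 7.26 and 7.87 in WT, at 0.72 ± 0.24. Within each genotype replicate 2 was the higher array for all 3. On the cDC1 array these genes were brighter still, at 7.46, 8.23 and 9.17. Whether cells of another kind or state add to this signal was not tested.

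**Figure D4:**
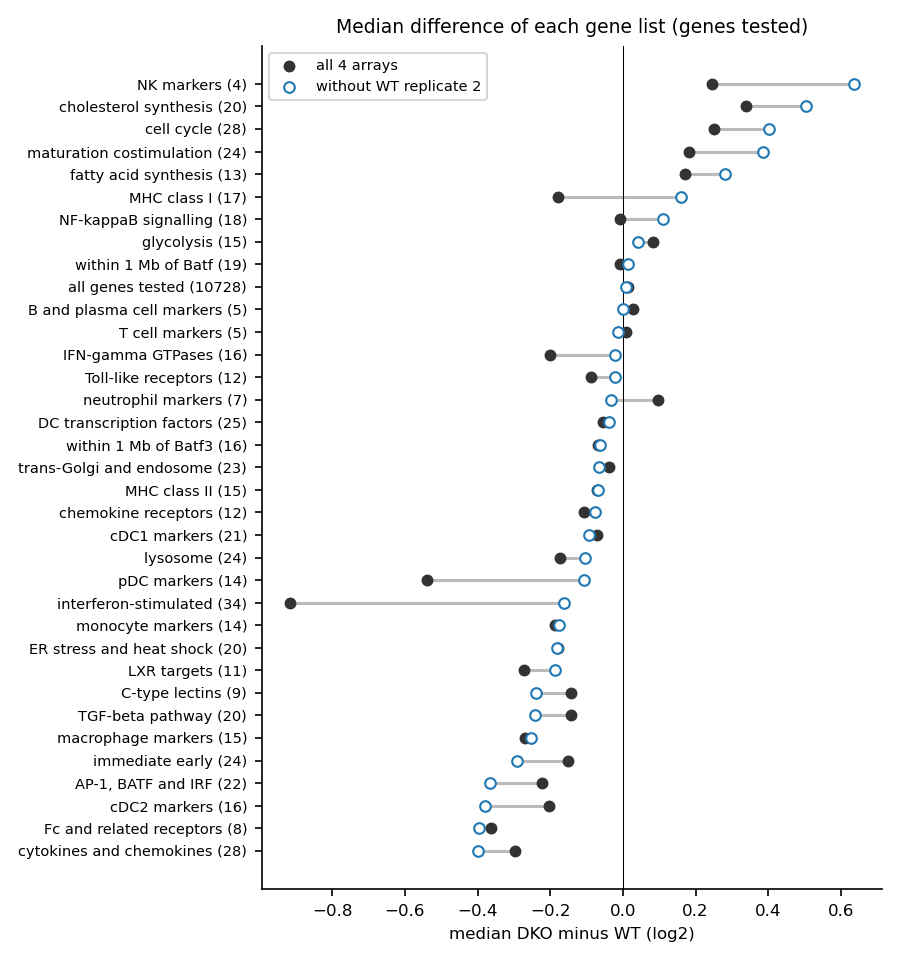
Median DKO minus WT (log2, x axis) of each gene list with at least 4 genes tested, with all 4 arrays (filled) and without WT replicate 2 (open), and the number tested in brackets. The interferon-stimulated list moves furthest, from -0.92 to -0.16, while cholesterol synthesis stays above 0 at 0.34 and 0.50.

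Of 28 inflammatory cytokines and chemokines tested, 12 were lower in DKO with no overlap (42.9%, against 13.4% of all genes) and 2 higher (7.14%, against 17.7%). The median was -0.30 (-0.46 without DKO replicate 1 to -0.13 without WT replicate 1, and -0.40 without WT replicate 2). Besides Cxcl10 and Cxcl11, Ccl5, a chemokine that attracts T cells, read 10.99 and 11.06 in DKO and 11.62 and 11.60 in WT, at -0.58 ± 0.09. Its 4 values fell into 2 tight pairs. Ccl9 stood at -0.50 ± 0.15, the suppressive cytokine Il10 at -0.95 ± 0.32 and Il12b, the shared chain of IL-12 and IL-23, at -0.74 ± 0.29, or -1.19 without WT replicate 2. Ccl3 read 8.63 and 6.85 in DKO and 9.76 and 8.19 in WT, at -1.23 ± 0.96, or -2.02 without WT replicate 2. Its arrays overlapped, but the DKO array was lower in each pair of the same number, and it was called with the block (adjusted p = 0.0117). Ccl22, a chemokine of mature dendritic cells, was higher, at 0.22 ± 0.09.

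Maturation and co-stimulation genes had a median of 0.18 over 24 members (0.01 without WT replicate 1 to 0.39 without WT replicate 2). Of these, 5 were higher (20.8%, against 17.7% of all genes) and 2 lower (8.33%, against 13.4%) with no overlap, which is near the share of all genes on the higher side. Pdcd1lg2 (PD-L2, a ligand that inhibits T cells through PD-1) read 8.39 and 8.62 in DKO and 7.47 and 7.61 in WT, at 0.97 ± 0.14 (adjusted p = 0.0144 with the block). Cd70, the ligand of CD27, read 8.57 and 7.68 in DKO and 7.09 and 7.25 in WT, at 0.95 ± 0.33, with the DKO replicates 0.89 apart. Anxa3 stood at 0.38 ± 0.14 and Stat4 at 0.55 ± 0.22. Genes of NF-kappaB signalling had a median of -0.01 over 18 members (-0.01 without WT replicate 1 to 0.11 without WT replicate 2).

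The AP-1, BATF and IRF list, which holds the 2 deleted genes, had a median of -0.22 over 22 members (-0.39 without DKO replicate 1 to -0.11 without DKO replicate 2, and -0.37 without WT replicate 2), with 8 lower (36.4%, against 13.4% of all genes) and 1 higher (4.55%, against 17.7%) with no overlap. Jdp2, an AP-1 repressor, read 8.55 and 8.48 in DKO and 8.94 and 9.14 in WT, at -0.53 ± 0.12, and the small MAF factor Mafk stood at -0.55 ± 0.17. Atf3 read 8.86 and 8.04 in DKO and 9.53 and 8.76 in WT, at -0.70 ± 0.45, or -1.08 without WT replicate 2 (adjusted p = 0.0257 with the block), and Bach1, which represses heme oxygenase, read 8.45 and 7.90 in DKO and 9.18 and 8.39 in WT, at -0.61 ± 0.39, or -1.01 without WT replicate 2 (adjusted p = 0.0460 with the block). For both, WT replicate 2 lay within the range of the DKO arrays, and within each pair of the same number DKO was lower. Immediate early genes, many of them AP-1 factors, had a median of -0.15 over 24 members (-0.31 without DKO replicate 1 to 0.02 without DKO replicate 2, and -0.29 without WT replicate 2), so that its sign turned without DKO replicate 2. Of these, 6 were lower (25%, against 13.4%) and 1 higher (4.17%, against 17.7%) with no overlap. Hspa1a, an inducible chaperone whose probes may also read its twin Hspa1b, stood at -0.76 ± 0.75, or -0.07 without WT replicate 2. Its differences by pair were close, and it was called with the block (adjusted p = 0.0307).

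Among cDC2 markers, 6 of 16 were lower in DKO with no overlap (37.5%, against 13.4% of all genes) and 1 higher (6.25%, against 17.7%), at a median of -0.20 (-0.39 without DKO replicate 1 to -0.07 without WT replicate 1, and -0.38 without WT replicate 2). With the block 2 were called lower (Clec12a and Cd300a) and 1 higher (Mcemp1). The inhibitory lectin Clec12a read 5.90 and 5.64 in DKO and 7.17 and 6.56 in WT, at -1.10 ± 0.24 (adjusted p = 0.0242 with the block). Both DKO values lay below the brightness limit of 5.94. Clec12a read 11.27 on the cDC1 array, so in these data it was brighter in cDC1 than in cDC2. Cd4, carried by a large part of spleen cDC2, read 6.92 and 7.08 in DKO and 7.61 and 7.78 in WT, at -0.69 ± 0.19. The inhibitory receptor Cd300a stood at -0.83 ± 0.24 (adjusted p = 0.0432 with the block), the fractalkine receptor Cx3cr1 at -0.71 ± 0.20 and the transcription factor Zeb2 at -0.35 ± 0.13. Mcemp1 went the other way and read 8.53 and 8.56 in DKO and 7.91 and 7.92 in WT, at 0.63 ± 0.09 (adjusted p = 0.0345 with the block). Sirpa stood at -0.17 ± 0.23, or -0.37 without WT replicate 2, Esam at 0.05 ± 0.13, or 0.01 without WT replicate 2, and Dtx1 at 0.02 ± 0.12, or 0.08 without WT replicate 2. Fc and related receptors had a median of -0.36 over 8 members (-0.48 without DKO replicate 1 to -0.29 without WT replicate 1, and -0.40 without WT replicate 2), with Cd300a, which the list also holds, the 1 called with the block. Of these, 4 were lower with no overlap (50%, against 13.4%), among them Fcer1g, the shared signalling chain, at -0.52 ± 0.15 and Fcgr4 at -0.86 ± 0.27, or -0.54 without WT replicate 2. C-type lectins, Clec12a among them, had one of -0.14 over 9 (-0.29 without DKO replicate 1 to -0.02 without WT replicate 1, and -0.24 without WT replicate 2).

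Of 21 cDC1 markers, 7 were lower in DKO with no overlap (33.3%, against 13.4% of all genes) and 1 higher (4.76%, against 17.7%), at a median of -0.07 (-0.18 without WT replicate 1 to -0.09 without DKO replicate 2, and -0.09 without WT replicate 2). Batf3, itself a deleted gene, is among these 7, as are the dim genes Cd36 and Itgae described below. Between 10 and 12 of the 21 were above the brightness limit of 5.94 on a resting cDC2 array, and all 21 were on the cDC1 array, so that some were tested only through it. Cd36, a scavenger receptor that is bright in cDC1 at 10.01, read 4.36 and 4.48 in DKO and 5.35 and 5.22 in WT, and Itgae read 5.30 and 5.37 in DKO and 5.86 and 5.90 in WT. Both lay below that limit on all cDC2 arrays, so their differences, and the call of Cd36 with the block, are between dim values. The adhesion molecule Cadm1 read 8.51 and 7.69 in DKO and 9.84 and 8.55 in WT, at -1.10 ± 0.54, or -1.74 without WT replicate 2. The summed intensity of the 21 markers was 5041 and 5202 in DKO and 5895 and 6364 in WT, against 15464 on the cDC1 array. Dendritic cell transcription factors had a median of -0.06 over 25 members (-0.10 without DKO replicate 1 to 0.08 without DKO replicate 2, and -0.04 without WT replicate 2). Tcf4, which codes for the factor E2-2 of plasmacytoid dendritic cells and of a part of cDC2, read 8.06 and 8.10 in DKO and 8.79 and 9.12 in WT, at -0.88 ± 0.16 (adjusted p = 0.0316 with the block).

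Markers of other cells were measured beside these results, and bulk arrays cannot tell fewer cells of a type from less RNA per cell. Plasmacytoid genes had a median of -0.54 over 14 members (-0.62 without WT replicate 1 to -0.11 without WT replicate 2), and of these Tcf4 was called with the block. Their summed intensity was 5341 and 8018 in DKO and 6517 and 15697 in WT, and the list shares Bst2 and Irf7 with the interferon genes. Macrophage genes had a median of -0.27 over 15 (-0.36 without WT replicate 1 to -0.25 without WT replicate 2) and a sum of 4268 and 4124 in DKO and 4908 and 5416 in WT, with 7 lower with no overlap (46.7%, against 13.4% of all genes). The complement genes C1qb stood at -0.75 ± 0.20 and C1qa at -0.74 ± 0.21, or -0.41 without WT replicate 2, and Cd163, Cd5l, Marco and Mertk were too dim to be tested. Monocyte genes had a median of -0.19 over 14 (-0.24 without DKO replicate 2 to -0.18 without WT replicate 2) and a sum of 5232 and 4544 in DKO and 5379 and 4958 in WT. Ms4a7 read 6.03 and 6.08 in DKO and 7.49 and 7.01 in WT, at -1.20 ± 0.18 (adjusted p = 0.0316 with the block), while S100a4 was higher, at 0.36 ± 0.08. The part of these cells in the results above was not tested.

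Lymphocyte and granulocyte markers were mostly dim. Of 16 B and plasma cell genes 5 were tested, with a median of 0.03 (-0.06 without DKO replicate 1 to 0.19 without DKO replicate 2, and 0 without WT replicate 2). Of 13 T cell genes 5 were, with a median of 0.01 (-0.04 without DKO replicate 1 to 0.06 without WT replicate 1, and -0.01 without WT replicate 2). The 4 of 15 NK cell genes tested, with Klri1 among them, had one of 0.24 (-0.0027 without WT replicate 1 to 0.64 without WT replicate 2), and the 7 of 16 neutrophil genes one of 0.10 (-0.03 without WT replicate 2 to 0.18 without DKO replicate 1). The sign of all of these medians turned with 1 array left out. Of 6 erythroid genes 2 were tested. The B cell marker Cd79a and the NK markers Ncr1 and Klrb1c were below the brightness limit on all arrays. The summed intensity of the B cell genes was 1277 and 830 in DKO and 1158 and 838 in WT, highest on both arrays of number 1.

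Genes next to the targeted loci were examined separately. Within 1 Mb of Batf, 19 genes were tested, with a median of -0.01 (-0.03 without DKO replicate 2 to 0.06 without DKO replicate 1, and 0.01 without WT replicate 2), 4 lower (21.1%, against 13.4% of all genes) and 1 higher (5.26%, against 17.7%) with no overlap. Jdp2 is among them. Erg28, a sterol-related membrane protein gene in the same window, read 9.99 and 10.02 in DKO and 9.39 and 9.68 in WT, at 0.47 ± 0.19. Within 1 Mb of Batf3, 16 genes were tested, with a median of -0.07 (-0.14 without DKO replicate 1 to 0.0013 without WT replicate 1, and -0.06 without WT replicate 2), 3 lower (18.8%) and 1 higher (6.25%). Atf3 is among them and was called with the block. Rps6kc1 and Traf5, which codes for an adaptor of TNF receptors, stood at -0.34 ± 0.14 and -0.27 ± 0.08. None of the neighbours passed over all genes without the block.

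The activated arrays share no array with the resting comparison, though they may come from the same mice. The resting p-value that defines held genes also drew on the spread of the activated arrays. Genes with close activated replicates were therefore favoured, so the counts of arrays without overlap given here are not an independent check. Of the 365 genes held higher at rest, 327 (89.6%) were also higher in activated DKO cDC2 on the mean, and of the 225 held lower, 203 (90.2%) were lower. Over all genes tested the sign was shared by 69.7%. The activated arrays did not overlap, in the same direction, for 266 (72.9%) and 154 (68.4%) of them, where 16.4% of all genes were higher and 13.5% lower with no overlap in activated cells. Tgfbi stood at -1.66 ± 0.11 and Tgoln1 at -1.52 ± 0.10 in activated cells (adjusted p = 0.0202 for both), and of the 179 genes named by rule these were the 2 that passed there. Upp1 was at 1.83 ± 0.25, Idi2 at 2.19 ± 0.28, Sema4a at 1.39 ± 0.52 and Cldn1 at 1.19 ± 0.16, each within 0.60 of its resting difference. The median of cholesterol genes was 0.40 and that of TGF-beta pathway genes -0.14. Other lists had smaller medians in activated cells than at rest. Interferon-stimulated genes stood at -0.13 against -0.92 at rest. Without WT replicate 2 their resting median was -0.16, near the activated one. Cell cycle genes stood at 0.08 against 0.25 at rest, or 0.40 without that array. Cytokines and chemokines stood at -0.10 against -0.30, or -0.40 without it, and maturation genes at 0.08 against 0.18, or 0.39 without it.

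The test of the difference between states called 0 genes by limma, with 121 at an unadjusted p under 0.05. Those of smallest p on the side where the resting difference was the higher were Sucnr1 (1.39 ± 0.14 at rest and 0.22 ± 0.14 activated), Arc (0.81 ± 0.12 and -0.15 ± 0.12), Pdcd1lg2 (0.97 ± 0.14 and 0.06 ± 0.14) and Macrod2 (0.55 ± 0.11 and -0.11 ± 0.11). On the other side they were Gprc5c (-0.66 ± 0.13 and 0.43 ± 0.13), Plpp2 (-0.28 ± 0.10 and 0.46 ± 0.10), Cxcl11 (-1.51 ± 0.19 and -0.16 ± 0.19) and Cd36 (-0.86 ± 0.10 and -0.25 ± 0.10, all between dim values). Arc, a synaptic protein gene also expressed by migratory dendritic cells, read 7.56 and 7.44 in DKO and 6.60 and 6.79 in WT at rest. Interferon genes held at rest had smaller differences in activated cells, with Rsad2 at -0.30 ± 0.34, Ifit2 at -0.44 ± 0.36 and Cxcl10 at -0.34 ± 0.60. The difference between states for these was -1.70 ± 0.49, -1.68 ± 0.51 and -2.57 ± 0.84, none past the threshold. They were named for large differences at rest, a choice that by itself favours smaller ones in other arrays. Over all genes held lower the median was -0.50 at rest and -0.30 activated, and over those held higher 0.40 and 0.27.

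**Figure D5:**
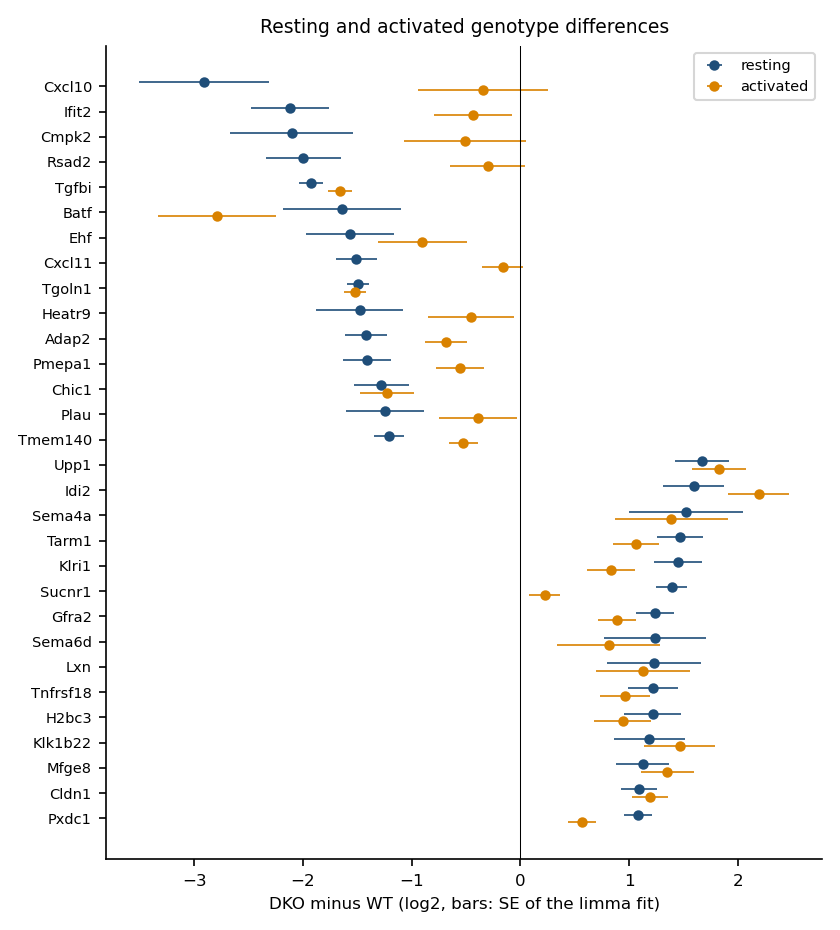
DKO minus WT (log2, x axis, bars are the SE of the limma fit) of the 30 named held genes in resting (blue) and activated (orange) cDC2, 2 arrays per group. Rsad2, Ifit2 and Cmpk2 lie nearer to 0 in activated cells than at rest, while Tgfbi, Tgoln1, Upp1 and Idi2 lie away from 0 in both. The genes were chosen by the size of their resting differences.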

How the data were processed

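RNA was measured on Affymetrix gene arrays, 1 sample per array. The authors deposited linear intensity values, summarised with RMA in Affymetrix Expression Console per the submitters' processing notes, with versions not given in the sources used here. RMA brings arrays to a shared distribution, so a change in total RNA is not visible. The number of arrays, 2 per group, limits the precision.

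Log2 was taken of each value. Of 28853 transcript clusters, 21789 carry 1 symbol in the platform annotation, 1621 several and 5443 none. Clusters of 1 symbol were used, the brightest per gene (19938 genes, 999 with several clusters). A gene was tested if any of the 5 group means exceeded 61.3 on the linear scale, the median over all such values. Groups and replicate numbers came from the titles. The test was that of limma (3.58.1, under R 4.3.3; two-sided, Benjamini-Hochberg), from 1 fit of all 9 arrays with 5 group means and 4 residual degrees of freedom, or 3 without WT replicate 2. The fit was tested on simulated data for this comparison, where it called 66% of 100 genes changed by 1 and 89% of 100 changed by 2 on the log2 scale among 10728 genes. It also called 9 genes that were not changed. The simulated noise was independent between arrays, whereas in the data arrays of the same number deviated together. These shares therefore check the code and do not give the power of the real comparison.

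Arrays of the same number deviated together. The correlation of their deviations from the group means was 0.66 for the resting genotypes and 0.45 to 0.69 over the 6 pairs of cDC2 groups. DKO replicate 1 correlated with WT replicate 1 at 0.985 and with DKO replicate 2 at 0.979. The labels do not say what a number shares. The fit with the number as a block left out the cDC1 array, and its calls are given beside the lists and genes described.

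Named genes were Batf, Batf2, Batf3, Irf4 and Irf8, the called genes, the 15 largest held differences each way, the 8 largest each way that fell below 50% without WT replicate 2, list members of smallest p, the 10 largest each way with the block, the genes of smallest p for the difference between states, and neighbours of Batf and Batf3 with an unadjusted p under 0.05. Unnamed genes and receptor gene segments were passed over. Some list members outside these, such as Atf3, Bach1, Hspa1a, Itgb8, Tgfbr1, Il10 and Irf7, were named after their values were seen. Members and gene lists were chosen with earlier results of these data known. Lists are described by counts and medians, without a set test. Promoter sequences and neighbours came from RefSeq tables of GRCm38.p6.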

Additional observations from a re-analysis of the deposited data

How the results depend on the processing

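The count of 2 genes in resting cDC2 was 0 with only the 4 resting arrays in the fit, 79 with the replicate block (34 higher and 45 lower), 0 with that block on the 4 resting arrays alone, an alternative chosen after seeing the data, and 1 with an intensity trend in eBayes. It was 0 to 6 with each resting array left out: 6 without WT replicate 1 and 0 without each of the others. No brightness filter, brightness in the resting groups only, a further quantile normalization, median centring, a pseudocount of 16 and the mean of clusters each left 2. Among the named genes, the activated count of 2 became 24 with the replicate block and 0 with each activated array left out. The count of 0 for the difference between states was 0 in all 16 alternatives run. The interferon median of -0.92 lay between -0.95 and -0.89 with the other settings, and between -1.62 and -0.16 with 1 array left out. Of the 179 named genes, 35 gained a call with the replicate block and 4 without WT replicate 1 (Cxcl11, Gbp3, Gbp5 and Gbp7). Genes below the brightness limit on all arrays were tested only without that filter.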

Other observations

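Lysosomal genes had a median of -0.17 over 24 members in resting cDC2 (-0.23 without WT replicate 1 to -0.08 without DKO replicate 1, and -0.11 without WT replicate 2), with 8 lower in DKO with no overlap (33.3%, against 13.4% of all genes) and 2 higher (8.33%, against 17.7%). The cathepsin gene Ctsb read 11.25 and 11.36 in DKO and 11.79 and 11.82 in WT, at -0.50 ± 0.09, with both WT arrays above both DKO arrays, and Ctsa, which codes for protective protein, stood at -0.54 ± 0.16. Npc1, which exports cholesterol from lysosomes, stood at -0.44 ± 0.18. MHC class II presentation genes, which share Ctsb, Ctss, Ctsd and Ctsl with this list, had a median of -0.07 over 15 members (-0.11 without DKO replicate 2 to -0.01 without WT replicate 1, and -0.07 without WT replicate 2). H2-Aa stood at -0.10 ± 0.10, H2-Ab1 at -0.12 ± 0.11, or -0.20 without WT replicate 2, and H2-Eb1 at -0.14 ± 0.12. Among 12 Toll-like receptor genes, Tlr7, the sensor of single-stranded RNA, read 7.74 and 7.26 in DKO and 8.42 and 9.07 in WT, at -1.24 ± 0.33, or -0.92 without WT replicate 2, and Tlr1, a partner of TLR2, read 10.32 and 10.73 in DKO and 9.95 and 9.36 in WT, at 0.87 ± 0.30, or 0.58 without WT replicate 2. The list's median was -0.09 (-0.32 without WT replicate 1 to 0.02 without DKO replicate 2, and -0.02 without WT replicate 2). None of these genes passed the threshold.

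Chemokine receptors had a median of -0.11 over 12 members (-0.21 without DKO replicate 2 to -0.08 without WT replicate 2), with 5 lower with no overlap (41.7%, against 13.4%). Among these 5, Ccr6 read 5.37 and 5.45 in DKO and 5.50 and 5.73 in WT. Those values lie below the brightness limit of 5.94, and Ccr6 was tested only through the cDC1 array, at 6.08. Ccr9, a gut-homing receptor, read 8.14 and 7.40 in DKO and 9.06 and 8.51 in WT, at -1.01 ± 0.43, and Ccrl2 stood at -0.72 ± 0.24. Genes of endoplasmic reticulum stress and heat shock had a median of -0.18 over 20 members (-0.18 without WT replicate 2 to -0.13 without WT replicate 1), with 1 lower with no overlap (5%), Ddit3, which codes for the stress factor CHOP, at -0.62 ± 0.21 (adjusted p = 0.0380 with the block). Glycolysis genes had a median of 0.08 over 15 members (-0.02 without DKO replicate 1 to 0.13 without WT replicate 1, and 0.04 without WT replicate 2), with 5 higher (33.3%, against 17.7%) and 2 lower (13.3%, against 13.4%) with no overlap. The lower ones were the hexokinases Hk3, which read 6.34 and 6.68 in DKO and 7.05 and 7.65 in WT, at -0.84 ± 0.21, or -0.54 without WT replicate 2, and Hk2, at -0.54 ± 0.22, or -0.32 without WT replicate 2, while Hk1 stood at 0.19 ± 0.09. None passed the threshold over all genes.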
